A study of Homo sapiens and Mus musculus with 19 samples.

Results

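The PAX genes encode a family of 9 transcription factors that share the paired domain, and the CCGG sites of all 9 (PAX1 to PAX9) were examined out of 19122 autosomal protein-coding genes. Members were chosen by gene name, with earlier results of these data known. Their sites were taken from 5 kb upstream of the transcription start to the end of the annotated span on GRCh38, and 1501 CCGG sites fell in these windows. The lines were H1ES (embryonic stem cells) and HepG2 (liver cells of a hepatocellular carcinoma). For each, 2 libraries were made from 1000 cells and 5 from individual cells, and the labels give no genotype change, treatment or time for either line. The labels name no separate cultures, so p-values cover only these libraries, whose spread may be technical, and they rest largely on counting error. The remaining 5 of the 19 libraries came from mouse cerebellum and were not used.

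PAX proteins bind DNA through the paired domain and, in several members, a homeodomain as well, and they direct the formation of organs and cell lineages in the embryo. PAX2, PAX5 and PAX8 act in kidney, B cells and thyroid, PAX3 and PAX7 in neural crest and muscle, PAX4 and PAX6 in pancreas and eye, and PAX1 and PAX9 in the vertebral column, thymus and teeth. In embryonic stem cells the starts of such developmental genes are known to lie in CpG islands that carry little methylation and are held silent by Polycomb proteins, and in cancer cells many of these islands gain methylation. Most CG sites elsewhere in the genome are methylated in stem cells, and 5-hydroxymethylcytosine (5hmC) is the oxidised form of 5-methylcytosine (5mC).

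The assay counts, at each CCGG site, tags from unmethylated, 5mC and 5hmC copies of the site, and a share is the percentage of one kind among all tags. The libraries of 1000 cells held 4911898 to 6644517 tags, and those of single cells 526207 to 2455908. Over all autosomal sites the unmethylated share was 4.24% and 4.73% in the H1ES libraries of 1000 cells and 38.0% and 39.1% in those of HepG2, so the lines differed genome-wide. A site was called island-like where at least 5 CCGG sites, itself included, lay within 500 bp on either side, and the rest are called other sites. Of the 840 island-like PAX sites 24.5% had a tag in a library of 1000 cells, and of the 661 other sites 74.9%. At the labels' own cell types, all 4 of the tested HepG2 (hepatocyte) marker genes had less 5mC at other sites in HepG2, with SERPINA1 at 38.7% ± 0.890 against 94.9% ± 0.186 in H1ES (SD, n = 2 each). Of all genes tested 66.2% were called lower in the same way. Of 3 tested stem cell markers, ZFP42 and L1TD1 had less unmethylated DNA at island-like sites in HepG2, as 6.85% of all genes tested had. At other sites all 4 tested stem cell markers also had a lower mean 5mC share in HepG2. Only DPPA4 was called (72.7% ± 3.27 in H1ES against 52.9% ± 1.31, edgeR, adjusted p = 0.0246). Less 5mC there was thus not particular to the HepG2 markers. None of the 5 fibroblast markers met the rules for a test, a known strand and a minimum of tags. DNA methylation is no measure of expression, and no expression was measured.

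The PAX promoters are shown first, because single CCGG sites in them carried opposite states in the lines. RefSeq holds 19 promoter windows (250 bases before to 50 after a start, GRCh38.p14) for 8 of the 9 genes, and PAX1 has no entry. A CCGG occurs in 15 of the 19 windows and in 63.1% of all 35116 windows of the table, and the 5 windows with at least 10 tags in the libraries of 1000 cells are printed 5′ to 3′ with each CCGG in capitals. The PAX8, PAX6 and PAX4 windows below held the reversed sites, and the PAX2 and PAX7 windows are shown as promoters that stayed mostly unmethylated.
PAX8, chr2:113278872-113279171, minus strand: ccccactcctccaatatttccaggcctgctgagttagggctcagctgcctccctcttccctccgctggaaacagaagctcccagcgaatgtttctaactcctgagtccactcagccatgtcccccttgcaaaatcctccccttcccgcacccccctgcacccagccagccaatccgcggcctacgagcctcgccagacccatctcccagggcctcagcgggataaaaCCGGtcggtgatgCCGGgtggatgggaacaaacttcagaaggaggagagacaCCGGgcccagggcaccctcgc
PAX6, inner start, chr11:31800612-31800911, minus strand: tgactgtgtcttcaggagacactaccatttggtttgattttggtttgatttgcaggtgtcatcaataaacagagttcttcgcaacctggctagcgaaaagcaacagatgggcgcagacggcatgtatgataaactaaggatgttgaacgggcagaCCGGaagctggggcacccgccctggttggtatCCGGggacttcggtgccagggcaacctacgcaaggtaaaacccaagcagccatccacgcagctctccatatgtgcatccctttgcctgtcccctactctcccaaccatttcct
PAX4, chr7:127618093-127618392, minus strand: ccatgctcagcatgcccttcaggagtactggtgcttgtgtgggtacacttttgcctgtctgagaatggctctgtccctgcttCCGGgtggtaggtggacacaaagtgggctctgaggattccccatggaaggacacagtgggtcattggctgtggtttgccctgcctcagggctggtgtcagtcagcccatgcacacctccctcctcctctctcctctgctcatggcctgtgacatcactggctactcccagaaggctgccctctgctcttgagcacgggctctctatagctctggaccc
PAX2, chr10:100735146-100735445, plus strand: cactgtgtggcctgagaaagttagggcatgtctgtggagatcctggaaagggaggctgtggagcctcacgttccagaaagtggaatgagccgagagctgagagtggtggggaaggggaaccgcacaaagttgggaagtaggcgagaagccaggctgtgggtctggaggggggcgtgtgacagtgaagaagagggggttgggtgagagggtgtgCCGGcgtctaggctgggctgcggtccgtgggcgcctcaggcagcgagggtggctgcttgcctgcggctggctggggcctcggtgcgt
PAX7, chr1:18630596-18630895, plus strand: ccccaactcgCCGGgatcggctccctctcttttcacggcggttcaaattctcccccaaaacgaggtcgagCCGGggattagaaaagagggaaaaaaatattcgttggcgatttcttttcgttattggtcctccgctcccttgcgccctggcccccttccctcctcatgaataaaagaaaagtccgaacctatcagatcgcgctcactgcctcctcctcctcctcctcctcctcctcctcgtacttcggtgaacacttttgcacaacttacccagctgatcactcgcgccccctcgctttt

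In the PAX8 promoter, tags came from the CCGG at base 228 of the window, 23 bases before the start. All 7 and all 9 tags of the H1ES libraries there were unmethylated, and none of the 8 and 5 tags of the HepG2 libraries was, so the lines did not overlap. The inner PAX6 start lies inside the gene, and the site at base 188 of its window, 17.24 kb from the first annotated start, was unmethylated in 5 of 6 and 4 of 5 tags in H1ES. In HepG2 the same site had 0 unmethylated of 5 and 0 of 7 tags. PAX4 had the opposite state: its CCGG at base 83 had 0 unmethylated of 9 and 0 of 8 tags in H1ES and 4 of 4 and 7 of 7 in HepG2. The PAX2 site at base 214 was unmethylated in 6 of 6 tags in H1ES and 7 of 9 in HepG2, and the PAX7 site at base 71 in 9 of 10 and 8 of 11. These are single sites with few tags, given as counts with no test: none of 13 tags at the PAX8 site in HepG2 allows an unmethylated share of up to 23.1%, and none of 17 at the PAX4 site in H1ES up to 17.6%.

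At island-like sites, 4 PAX genes had a lower unmethylated share in HepG2 than in H1ES and 1 had a higher share. PAX8 (thyroid and kidney), PAX9 (teeth and thymus), PAX6 (eye and brain) and PAX3 (neural crest) were lower, and PAX7 (muscle stem cells) was higher. Of the 9 members 7 held the required 10 tags in every library and a strand, and PAX2 and PAX5 were tested without a call. Over all 6744 genes tested the same edgeR test called 6.85% lower and 29.6% higher in HepG2. The median log2 odds of an unmethylated tag, HepG2 minus H1ES, was -1.59 over the 7 PAX genes and 0.66 over all genes tested. When odds were taken relative to those of each library, which moved the median of all genes to -0.16, the background was 14.7% lower and 18% higher, the same 4 PAX genes were lower and none was higher (edgeR, 0 at an unadjusted p under 0.05, and 0 by DESeq2 and limma on odds as measured).

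**Figure D1:**
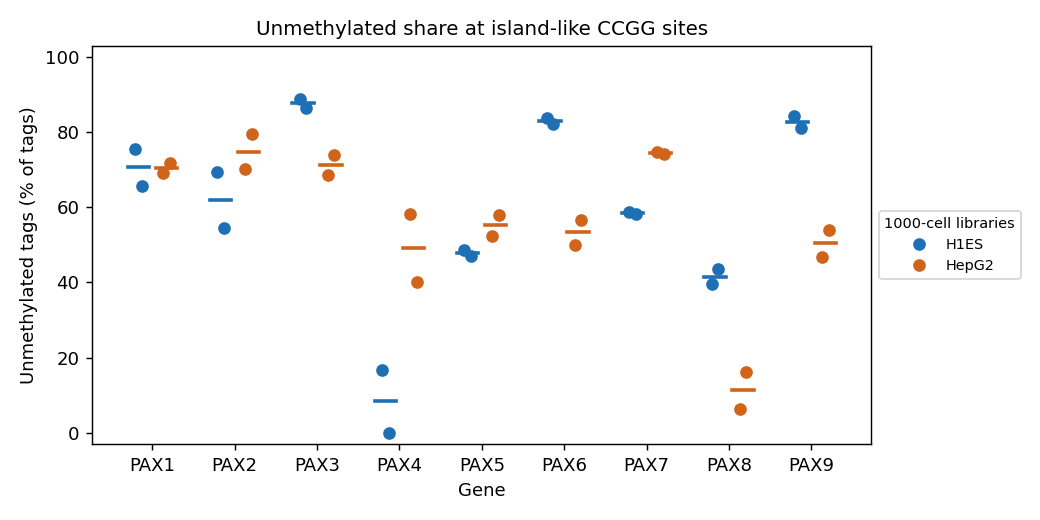
Unmethylated tags (% of tags) at island-like CCGG sites of each PAX gene in the libraries of 1000 cells. Points are libraries (2 per line) and bars are means. In PAX3, PAX6, PAX8 and PAX9 both HepG2 points lie below both H1ES points, and in PAX7 both lie above; PAX4 rests on 5 to 12 tags a library.

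PAX8 and PAX2, which act together in the kidney, and PAX5, the B-cell member, belong to one branch of the family. In PAX8 the island-like unmethylated share was 39.5% and 43.6% in the H1ES libraries and 6.38% and 16.3% in those of HepG2, with no overlap. The difference in log2 odds was -2.48 (edgeR, adjusted p = 0.000109). It missed the threshold when the window began at the start (-1.24, adjusted p = 0.158), with the stricter island of 10 sites (-1.67, adjusted p = 0.381), without H1ES replicate 1 (adjusted p = 0.0677) and without H1ES replicate 2 (adjusted p = 0.0764). The window from the start leaves out the PAX8 promoter site described above, with 16 of 16 unmethylated tags in H1ES and 0 of 13 in HepG2. PAX2 stood at 69.5% and 54.5% in H1ES and 70.1% and 79.6% in HepG2, a difference of 0.73 that was not called (edgeR, adjusted p = 0.122). PAX5 was intermediate in both lines, at 48.6% and 47.2% in H1ES and 52.5% and 58.1% in HepG2. Its libraries did not overlap, but the difference of 0.40 was not called (adjusted p = 0.24), except with the window from the start (1.07, adjusted p = 0.00542).

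PAX6, a master regulator of the eye that also acts in brain and pancreatic islets, had 83.8% and 82.1% unmethylated tags at island-like sites in H1ES and 48 of 96 and 47 of 83 tags unmethylated in HepG2, the latter 56.6%. Both HepG2 libraries were far below both H1ES libraries, with a log2 odds of -2.11 (edgeR, adjusted p = 1.25e-07), and the call held in 13 of 13 alternatives, at -4.91 to -1.18. PAX4, which acts in the insulin-producing beta cells, had only 14 island-like tags in H1ES and 17 in HepG2 and could not be tested. Its unmethylated share was 16.7% and 0% in H1ES, where the 0 of 8 tags allows up to 37.5%, and 58.3% and 40.0% in HepG2.

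PAX3, needed for neural crest and early muscle, was at 88.9% and 86.5% in H1ES and 68.6% and 73.9% in HepG2. The log2 odds of -1.59 passed narrowly (edgeR, adjusted p = 0.0275) and missed the threshold by DESeq2 (adjusted p = 0.183), by limma (0.0651), with the window from the start (0.0897) and without any one of the 4 libraries (0.0654 to 0.3). PAX7, its closest relative and a marker of muscle stem cells, was at 58.7% and 58.2% in H1ES and 74.8% and 74.3% in HepG2, a tight separation of 1.05 in log2 odds (adjusted p = 0.00331). PAX7 missed the threshold by DESeq2 (0.0907), by limma (0.143), relative to each library's odds (0.21, adjusted p = 0.659) and without H1ES replicate 1 (0.0942), H1ES replicate 2 (0.0557) or HepG2 replicate 1 (0.0519). With the stricter island of 10 sites its direction turned (-1.17, adjusted p = 0.465).

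PAX9, which is required for teeth, thymus and palate, was at 84.4% and 81.2% in H1ES and 46.9% and 53.9% in HepG2. The lines lay far apart, with a log2 odds of -2.26 (edgeR, adjusted p = 8.88e-06), which missed the threshold only without H1ES replicate 1 (-2.08, adjusted p = 0.0678) among 12 alternatives. The HepG2 value rests on 185 tags against 77 in H1ES. PAX1, its partner in the vertebral column, has no strand in the reference tables used here, so its window ran 5 kb beyond both ends, a choice made after the data were seen. Its island-like share was 75.6% and 65.7% in H1ES and 69.2% and 71.7% in HepG2, which overlapped (log2 odds -0.06, edgeR, adjusted p = 0.943). With that window 7.14% of 9449 genes were called lower and 32.1% higher.

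The island-like sites of one gene form separate clusters, runs with gaps of at most 500 bp, and clusters of the same gene went in opposite directions. There were 69 clusters, of which 51 held at least 10 tags over the libraries of 1000 cells and 16 held 10 in every library. Of these 16, 4 had a lower unmethylated share in HepG2 and 3 a higher one, where the same edgeR test called 5.41% lower and 40.8% higher over all 12307 clusters tested. With a minimum of 5 tags, 30 PAX clusters were tested, 5 were lower and 6 higher, and the background was 3.7% and 32%. Positions below are given from the first base of the annotated gene along its strand, in kb.

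**Figure D2:**
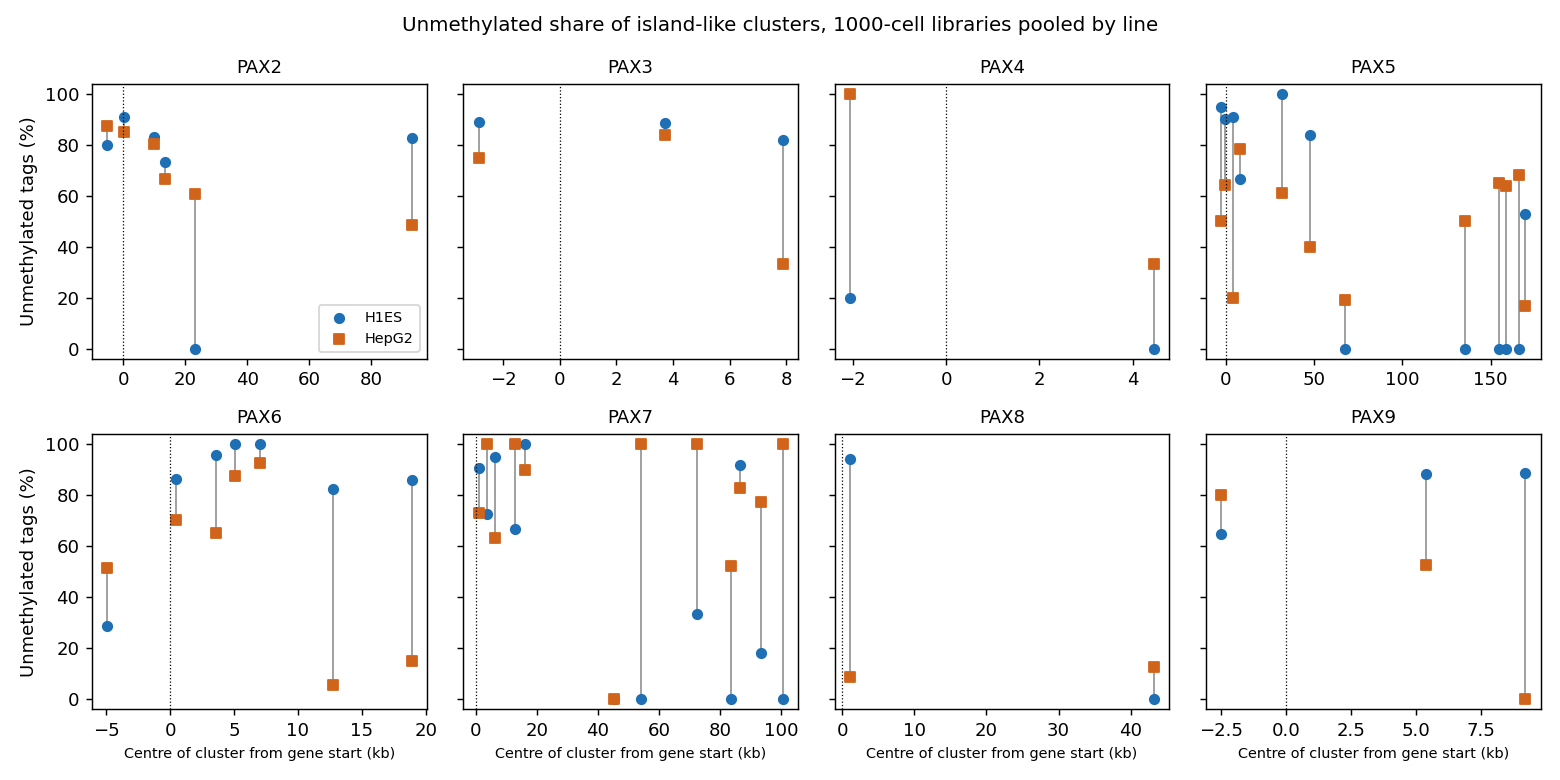
Unmethylated tags (%) of each island-like cluster with at least 10 tags, pooled over the 2 libraries of 1000 cells per line, against its centre from the gene start (kb; dotted line, the start). PAX1 is not drawn because it has no strand, and grey lines join the lines' values for one cluster. In PAX5 and PAX7 the distal clusters at 0% in H1ES lie mostly above 40% in HepG2, while in PAX6, PAX8 and PAX9 some clusters above 80% in H1ES, among them the PAX8 start cluster, lie far lower in HepG2 and others, as at 4.72 to 8.04 kb in PAX6, stay above 80%.

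PAX8 held 2 clusters. The start cluster (chr2:113276739-113278944, -0.02 to 2.18 kb) had 15 unmethylated of 16 tags and 17 of 18 in the H1ES libraries and 1 of 22 and 2 of 12 in those of HepG2. The states were nearly opposite and the log2 odds was -7.10 (edgeR, adjusted p = 9.74e-07). The PAX8 promoter site described above lies in this cluster. It gave 16 of the 34 tags in H1ES and 13 of the 34 in HepG2, so the promoter, gene and cluster values share tags. The inner cluster, 42.3 to 44.1 kb into the gene, had 0 unmethylated of 43 tags in H1ES, which allows up to 6.98%, and 7 of 56 in HepG2 (12.5%). It was called higher (edgeR, adjusted p = 0.0313), but not with the minimum of 5 tags (0.0612), with the replicate block (0.0618), relative to each library (0.147), without H1ES replicate 1 (0.165) or 2 (0.157), or without HepG2 replicate 2 (0.208). This cluster also lies in PAX8-AS1, a noncoding gene, and CCGG tags cannot be assigned to one of overlapping genes.

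The PAX6 cluster called lower lay in the inner part of the gene. This cluster, 17.9 to 19.9 kb from the start, had 31 unmethylated of 36 tags and 19 of 22 in H1ES and 3 of 20 in each HepG2 library, a log2 odds of -5.06 (edgeR, adjusted p = 1.14e-06). Beside it, at 11.7 to 13.8 kb, 14 of 17 tags were unmethylated in H1ES and 1 of 18 in HepG2, a difference called with the minimum of 5 tags (-5.93, adjusted p = 0.00731) and not tested with 10, which 3 of the 4 libraries missed (8, 9 and 5 tags). RefSeq promoter windows of PAX6 also lie in this cluster (chr11:31804992-31805291 and chr11:31805952-31806251). The cluster over the first start, which also reaches into PAX6-AS1, had 20 of 23 and 12 of 14 in H1ES and 15 of 23 and 16 of 21 in HepG2. Its log2 odds of -1.38 was not called (adjusted p = 0.219), except relative to each library's odds (-2.59, adjusted p = 0.0122, with 9.77% of clusters lower and 30.1% higher on that scale). Between them, the clusters at 4.72 to 5.48 kb and 6.05 to 8.04 kb were unmethylated in 5 of 5 and 9 of 9 tags in H1ES and 7 of 8 and 13 of 14 in HepG2. Both also overlap RefSeq promoter windows of PAX6 (chr11:31812671-31812970 and chr11:31809910-31810209). The cluster at 3.17 to 4.06 kb was lower in HepG2 in both libraries, with 14 of 15 and 10 of 10 unmethylated tags in H1ES and 10 of 14 and 5 of 9 in HepG2, but was not called with the minimum of 5 tags (-3.40, adjusted p = 0.0668). The cluster at -5.14 to -4.66 kb, which lies only partly in the window, went the other way, from 12 of 42 unmethylated tags in H1ES to 18 of 35 in HepG2. It was not called (edgeR, log2 odds 1.39, adjusted p = 0.142). Whether the inner and first-start clusters differ in their change was not tested.

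PAX9 had no cluster of 10 tags at its first annotated start. An inner RefSeq promoter window of PAX9 (chr14:36661610-36661909), without a CCGG, lies in its most tagged cluster, at 3.97 to 6.80 kb (chr14:36661541-36664373). There 26 of 29 and 19 of 22 tags were unmethylated in H1ES and 38 of 75 and 35 of 64 in HepG2, a log2 odds of -2.71 (edgeR, adjusted p = 0.00039; without H1ES replicate 1, 0.0672). The HepG2 value was an average of unlike sites. At 3.97 kb, the edge of the cluster, 3 of 32 and 5 of 26 HepG2 tags were unmethylated, against 11 of 13 and 6 of 6 in H1ES, whereas at 4.92 kb 6 of 7 and 9 of 13 HepG2 tags were unmethylated, against 6 of 6 in each H1ES library. The next cluster, at 8.86 to 9.54 kb, had 8 of 9 unmethylated tags in H1ES and 0 of 21 in HepG2, which allows up to 14.3%, too few tags in H1ES for a test. Upstream, at -2.76 to -2.22 kb, the share was higher in HepG2, with 20 of 25 unmethylated tags against 11 of 17 in H1ES. This cluster was not called with the minimum of 5 tags (edgeR, log2 odds 1.11, adjusted p = 0.489).

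At PAX2 the start was largely unmethylated in both lines. The cluster at -0.04 to 0.52 kb was unmethylated in 20 of 22 tags in H1ES and 23 of 27 in HepG2, and the larger one at 8.69 to 11.1 kb in 39 of 47 and 37 of 46, and neither was called. The larger one covers an inner RefSeq promoter window of PAX2 (chr10:100745332-100745631). Far inside, at 22.8 to 23.3 kb, 0 of 14 and 0 of 20 H1ES tags were unmethylated, which allows up to 8.82% in all, while 6 of 13 and 8 of 10 HepG2 tags were unmethylated (edgeR, adjusted p = 0.000122; without H1ES replicate 1, 0.0590, and without H1ES replicate 2, 0.0679). The cluster that crosses the 3′ end went the other way, from 15 of 18 and 14 of 17 unmethylated tags in H1ES to 10 of 21 and 7 of 14 in HepG2. Its log2 odds of -2.31 passed narrowly (adjusted p = 0.0228) and was lost with the replicate block (0.0532) and without any one library (0.0723 to 0.159).

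PAX5 showed the most clusters at 0% in H1ES. Of its 12 clusters with at least 10 tags, 5 had no unmethylated tag in H1ES (0 of 43, 27, 18, 16 and 15 tags), all of them at least 67.1 kb from the start, and the 0 of 43 allows up to 6.98%. In HepG2 the 43-tag cluster was unmethylated in 5 of 9 and 8 of 11 tags, the 27-tag cluster in 7 of 10 and 8 of 12, and the 15-tag cluster in 3 of 5 and 4 of 6. These 3 were called with the minimum of 5 tags (edgeR, adjusted p = 0.00335, 0.00439 and 0.0239), and the 27-tag cluster, at 166 kb, also with the minimum of 10 (9.83e-05). The 18-tag cluster, at 67.1 to 67.8 kb, stayed mostly methylated in HepG2, with 4 of 21 tags unmethylated. It was not called with the minimum of 5 tags (edgeR, adjusted p = 0.139). The 16-tag cluster was unmethylated in 4 of 6 and 0 of 2 HepG2 tags, too few for a test. The cluster over the PAX5 start had 21 of 23 and 16 of 18 unmethylated tags in H1ES and 13 of 17 and 5 of 11 in HepG2. Its log2 odds of -2.30 was not called (adjusted p = 0.0617), but passed by limma (0.0389), relative to each library's odds (0.00239) and without HepG2 replicate 1 (0.043). Other PAX5 clusters also had lower shares in HepG2 without being called. The one at 47.3 to 48.6 kb had 21 of 25 unmethylated tags in H1ES and 6 of 15 in HepG2, and the one at 31.4 to 31.7 kb 14 of 14 and 11 of 18 (edgeR with the minimum of 5 tags, adjusted p = 0.0621 and 0.0642). Those at 3.86 to 3.97 kb (10 of 11 against 1 of 5) and at -2.81 to -2.46 kb (18 of 19 against 5 of 10) had too few tags for a test.

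PAX7 also held distal clusters with higher shares in HepG2. Its start cluster had 22 of 25 and 8 of 8 unmethylated tags in H1ES and 14 of 21 and 13 of 16 in HepG2, which was not called with the minimum of 5 tags (edgeR, log2 odds -1.81, adjusted p = 0.211). Distal clusters at 83.1 to 83.6 kb (0 of 18 tags unmethylated in H1ES, which allows up to 16.7%, and 8 of 13 and 3 of 8 in HepG2) and at 93.0 to 93.3 kb (3 of 15 and 1 of 7 in H1ES, 14 of 18 and 17 of 22 in HepG2) were called higher in HepG2 at that minimum (adjusted p = 0.0208 and 0.0064). Between these, the cluster at 86.1 to 86.5 kb was unmethylated in both lines, in 34 of 37 tags in H1ES and 29 of 35 in HepG2. The 2 tested PAX3 clusters were not called: the one upstream, which overlaps the noncoding gene CCDC140, was at 32 of 36 against 21 of 28 tags (-1.37, adjusted p = 0.343), and the one at 3.10 to 4.33 kb at 31 of 35 against 26 of 31 (-0.56, adjusted p = 0.8). A PAX3 cluster at 7.76 to 7.98 kb had too few tags for a test. Its unmethylated tags were 4 of 5 and 5 of 6 in H1ES and 4 of 12 and 1 of 3 in HepG2. The tested PAX1 cluster had 36 of 46 unmethylated tags in H1ES and 46 of 59 in HepG2 (-0.02, adjusted p = 1).

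At the other sites, most PAX genes had far less 5mC in HepG2, as most genes did, but PAX6 had more and PAX9 did not differ beyond the spread between libraries. Of 8 members tested with at least 20 tags in every library, 6 were lower, 1 was higher and 1 was not called, where the same edgeR test called 66.2% of 12305 genes lower and 1.14% higher. The median log2 odds of 5mC was -2.94 over the 8 and -2.36 over all genes. Relative to each library's odds the median of all genes moved to 0.59 and the background to 23.4% lower and 34.2% higher. On that scale PAX2, PAX4 and PAX7 were lower, PAX6 and PAX9 higher, and PAX3, PAX5 and PAX8 were not called.

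**Figure D3:**
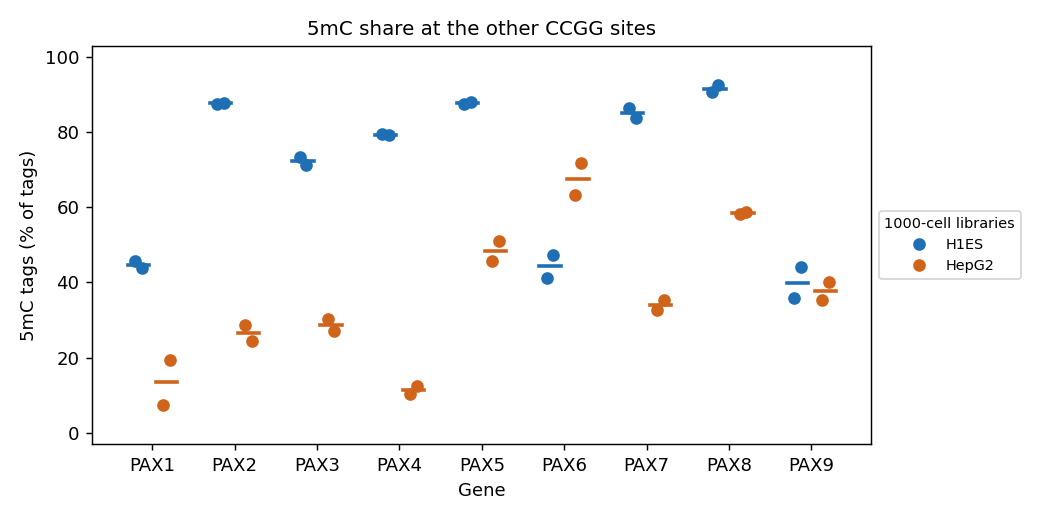
5mC tags (% of tags) at the other CCGG sites of each PAX gene in the libraries of 1000 cells, with points for libraries (2 per line) and bars for means. HepG2 lies below H1ES in PAX1 to PAX5, PAX7 and PAX8, above it in PAX6, and at the same level in PAX9.

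PAX6 had 41.2% and 47.4% 5mC at other sites in H1ES and 63.4% and 71.9% in HepG2, with no overlap. The log2 odds was 1.39 (edgeR, adjusted p = 0.00137) and missed the threshold by DESeq2 (0.088) and with the window from the start (0.99, adjusted p = 0.051). PAX6 also overlaps ELP4, a subunit of Elongator, at its 3′ end. PAX9 had 35.9% and 44.1% in H1ES and 35.3% and 40.0% in HepG2, which overlapped (-0.09, adjusted p = 0.812); relative to each library's odds its log2 odds was 2.93 (adjusted p = 3.01e-20).

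The largest falls were in PAX4, from 79.3% ± 0.173 in H1ES to 11.4% ± 1.52 in HepG2 (SD, n = 2 each; log2 odds -4.82, edgeR, adjusted p = 1.15e-10), and in PAX2, from 87.7% ± 0.131 to 26.5% ± 3.12 (-4.28, adjusted p = 2.17e-79). PAX7 stood at 85.1% ± 2.0 against 34.0% ± 1.98, and PAX3 at 72.3% ± 1.52 against 28.7% ± 2.41. PAX5, the B-cell member, fell from 87.8% ± 0.469 to 48.3% ± 3.77 and PAX8, the thyroid member, from 91.6% ± 1.31 to 58.5% ± 0.246. Differences in the fall between members were not tested. In PAX1, with 5 kb on both sides, 5mC was 45.7% and 43.8% in H1ES and 7.32% and 19.4% in HepG2 (-2.42, adjusted p = 0.000147, where 71.1% of 16790 genes were called lower and 1.09% higher), and it was not called over the annotated span alone (adjusted p = 0.0721).

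In H1ES all 8 tested PAX genes had less 5mC at other sites than the median gene, which stood at 96.7% (quartiles 93.8% and 98.4%). PAX9 exceeded 0.301% of the 12305 genes, PAX6 0.358%, PAX3 1.58% and PAX4 3.20%, and PAX8, the highest, 16.2%. In HepG2 the gene median was 83.3%, and the PAX genes exceeded between 0.252% (PAX4) and 33.6% (PAX6) of genes.

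In 3 members, other sites near an island-like site and those farther away changed differently between the lines. This split, at 2 kb, was made after the data were seen and carries no test. In PAX3 the sites within 2 kb of an island-like site had 6.67% and 17.9% 5mC in H1ES and 46.8% and 42.5% in HepG2, whereas those farther away had 86.1% and 87.5% in H1ES and 25.7% and 22.5% in HepG2. Near sites were thus more methylated in HepG2 and far sites less. PAX9 had the same arrangement: near sites had 28.0% and 38.8% in H1ES and 40.8% and 44.4% in HepG2, and far sites 70.6% and 70.0% against 22.2% and 17.9%, so its flat pooled value was the sum of both. PAX6 near sites had 20.7% and 26.8% in H1ES and 54.7% and 68.8% in HepG2, while its 4 far sites had 95.5% and 100% against 88.9% in each HepG2 library. These far sites held only 38 tags in H1ES and 27 in HepG2. In PAX1, PAX2, PAX4, PAX5, PAX7 and PAX8 both kinds of site had less 5mC in HepG2, though the PAX4 far sites held 3 tags in H1ES and 4 in HepG2. At the PAX8 near sites 5mC was 98.0% ± 2.83 in H1ES against 70.5% ± 7.73 in HepG2. Within H1ES, near sites had less 5mC than far sites in every member but PAX8. PAX1 had 30.1% ± 3.01 against 86.7% ± 18.9 there, and PAX2 56.2% ± 5.39 against 94.0% ± 2.54.

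Single sites with at least 10 tags in each line went both ways. Of 25 such island-like sites, 4 were at least 80% unmethylated in H1ES and at most 20% in HepG2 (2 in PAX8, 1 each in PAX6 and PAX9), and 1, in PAX7, was the reverse. Over all 29255 autosomal island-like sites with such depth 1.62% went the first way and 11.9% the reverse. Of 127 other sites, 2 went the first way, in PAX5 and PAX6, and 45 the second, 15 of them in PAX5, where 0.112% and 23.5% of 288993 autosomal sites did. Sites of one gene are not independent, and these counts carry no test. They include sites already described: the PAX8, inner PAX6 and PAX4 promoter sites and the PAX9 site at 3.97 kb. The PAX5 site of the first kind, 2.33 kb upstream of the start, was unmethylated in 18 of 20 and 5 of 6 tags in H1ES and in 0 of 12 and 0 of 10 in HepG2. Of the reverse kind, the PAX5 site 130.46 kb from the start was unmethylated in 0 of 16 and 0 of 10 tags in H1ES and in 11 of 12 and 5 of 5 in HepG2.

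5hmC at the other sites was higher in H1ES than in HepG2 in PAX2, PAX5, PAX7 and PAX8. Of 8 members tested, these 4 were lower in HepG2 and 0 higher, where the same edgeR test called 11.4% of genes lower and 0.0% higher. At an unadjusted p under 0.05, 6 were lower and 0 higher, and DESeq2 called 4 lower and limma 6, with 0 higher in both. Relative to each library's odds none of the 8 was called (3 lower at an unadjusted p under 0.05), with a background of 0.00813%. The median log2 odds was -4.22 over the 8 and -2.14 over all genes, and -4.51 and -0.38 on the relative scale. There the log2 odds of PAX7, PAX8 and PAX9 were smaller in size than as measured (-1.905, -2.16 and -0.48). Those of PAX2, PAX3, PAX5 and PAX6, which had no 5hmC tag in HepG2, were larger (-11.1, -9.71, -12.4 and -6.87). Taking the smaller methylated share as 5hmC rests on its column in the deposited tables, and every value here depends on that.

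**Figure D4:**
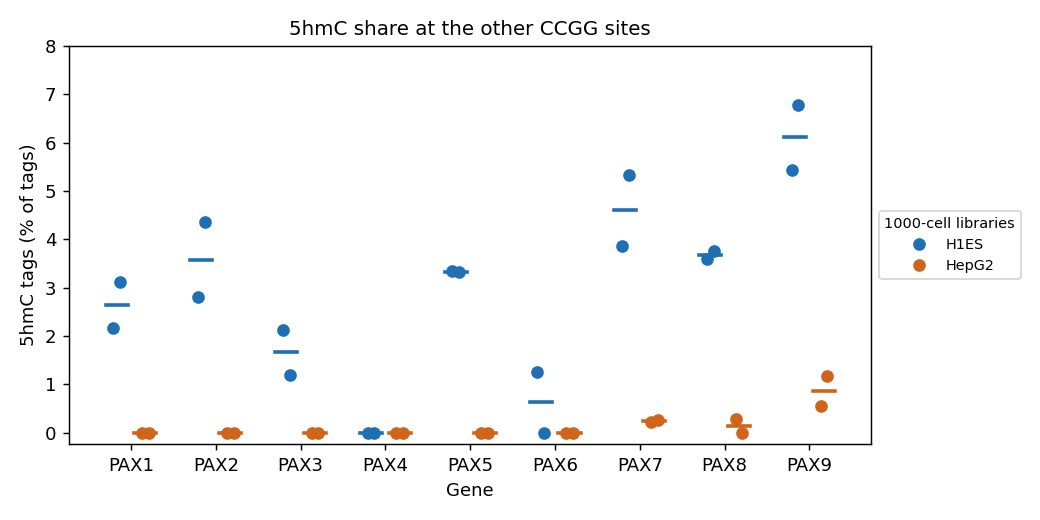
5hmC tags (% of tags) at the other CCGG sites of each PAX gene in the libraries of 1000 cells, with points for libraries (2 per line) and bars for means. All H1ES libraries of PAX1 (1 5hmC tag each), PAX2, PAX3, PAX5, PAX7, PAX8 and PAX9 lie above those of HepG2. In HepG2 6 of the 9 genes have no 5hmC tag.

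PAX7 had 21 5hmC tags of 543 (3.87%) and 18 of 338 (5.33%) in H1ES and 1 of 476 and 1 of 393 in HepG2, a log2 odds of -4.17 (edgeR, adjusted p = 2.26e-06). PAX5 had 27 of 806 (3.35%) and 19 of 573 (3.32%) in H1ES and 0 of 1249 in HepG2, which allows up to 0.240% (adjusted p = 1.67e-09). In both genes every H1ES library was far above the HepG2 libraries. PAX8 had 10 of 278 and 9 of 240 in H1ES and 1 of 626 in HepG2 (adjusted p = 0.00109), and PAX2 10 of 356 and 10 of 230 against 0 of 493, which allows up to 0.609% (adjusted p = 0.000866).

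PAX9 had the highest 5hmC share of the family in H1ES, 6.11% ± 0.951, but from 9 tags of 151, against 0.860% ± 0.448 in HepG2, which was not called (edgeR, adjusted p = 0.089). PAX3 had 1.66% ± 0.658 in H1ES and no 5hmC tag of 392 in HepG2, and was not called either (adjusted p = 0.103). PAX6 had 1 tag of 137 in H1ES, PAX1 2 of 78 and PAX4 none of 58, which allows up to 5.17%. Over all genes tested the H1ES median was 1.31% (quartiles 0.685% and 2.07%). PAX9 lay above 99.2% of genes, PAX7 97.5%, PAX8 94.4%, PAX2 93.9% and PAX5 92.5%, while PAX3 lay above 62.6% and PAX6 above 22.8%. A larger gene holds more tags and thus a finer share, and PAX4, PAX6 and PAX1 were the members with the fewest.

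Pooled over 5 cells of a line, the single-cell libraries gave unmethylated shares close to those of the libraries of 1000 cells. They are described with exact Clopper-Pearson 95% intervals, which cover counting error only, since a library holds 1 cell and the labels do not tie cells to cultures. The unmethylated share of the 1000-cell libraries lay inside the interval of the cells in 9 of 9 genes in each line at island-like sites, in 9 of 9 in H1ES at other sites, and in 8 of 9 in HepG2 there. The exception was PAX9, with 51.8% in the cells (43.9% to 59.6%) against 61.6%. Its 5mC share in HepG2 was outside as well, at 47.6% in the cells (39.8% to 55.5%) against 37.6%, the one 5mC share that was. For 5hmC 3 of 36 shares were outside, all in HepG2 (PAX3 and PAX5 at other sites and PAX7 at island-like sites), where the libraries of 1000 cells had no 5hmC tag and the cells 0.147% to 0.741%. Each of these rests on 1 5hmC tag in the cells (of 228, 678 and 135 tags), and the interval of 1 tag never includes 0. HepG2 cells 3 and 5 held 2455908 and 2434482 tags and the other HepG2 cells 526207 to 611318, so cells 3 and 5 dominate the pooled HepG2 values. At PAX6 island-like sites 58 of 64 tags were unmethylated in H1ES cells (90.6%, interval 80.7% to 96.5%). In HepG2 cells 56 of 101 were (55.4%, 45.2% to 65.3%), and the intervals did not overlap. HepG2 cells 3 and 5 gave 22 of 44 and 14 of 31 of these tags. Cells 1, 2 and 4 were higher, at 7 of 10, 11 of 13 and 2 of 3. In PAX8 the start cluster had 8 of 10 unmethylated tags in H1ES cells and 1 of 25 in HepG2 cells. The inner PAX6 cluster had 13 of 14 and 2 of 25, and the PAX5 cluster at 154 kb had 0 of 14 and 8 of 11. At other sites 5hmC made up 13 of 434 tags of PAX7 in H1ES cells and 1 of 494 in HepG2 cells.

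**Figure D5:**
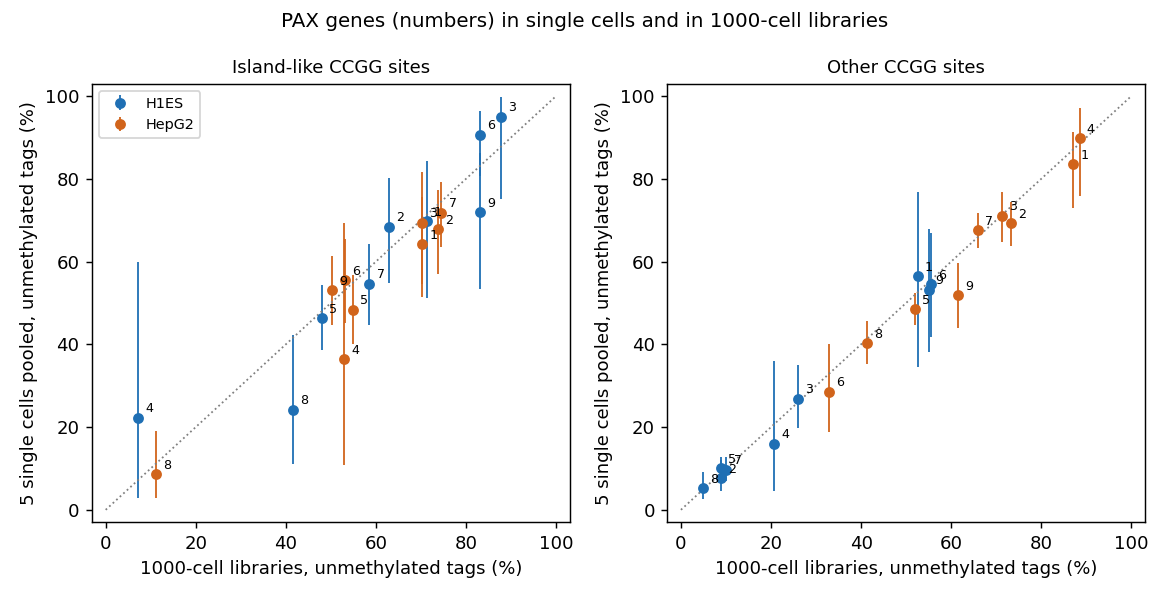
Unmethylated tags (%) of 5 pooled single cells against those of the pooled libraries of 1000 cells, for island-like (left) and other CCGG sites (right). Points are PAX genes, labelled by number, bars are exact 95% Clopper-Pearson intervals and the dotted line marks equality, which 1 interval, HepG2 PAX9 at other sites, does not cross.

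Partners and targets of PAX proteins were listed (42 genes, 41 in the table), among them the cofactors EYA1 and DACH1 and thyroid, B-cell and pancreas targets. The list was made with earlier results of these data known, so its counts are a description beside the background. At island-like sites 19 were tested, 11 had a lower and 2 a higher unmethylated share in HepG2, against a background of 6.85% and 29.6% of genes, and their median log2 odds was -2.02 against 0.66 over all genes. FOXE1, a thyroid factor, was at 89.4% ± 0.0431 in H1ES and 39.4% ± 0.786 in HepG2 (SD, n = 2 each; edgeR, adjusted p = 5.15e-12), and SIX6, an eye factor, at 92.8% ± 7.48 and 46.0% ± 15.8 (adjusted p = 4.55e-07). NKX2-2, a pancreas and neural tube factor, stood at 89.7% ± 1.51 against 56.0% ± 10.1, and TFAP2A was the other named gene with a lower share. The higher ones were RET, the receptor for GDNF, at 1.85% ± 2.62 against 71.6% ± 4.82 (adjusted p = 1.68e-11), and SLC5A5, the iodide transporter of the thyroid, at 24.8% ± 2.25 against 65.2% ± 3.54.

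At the other sites of the same list 16 genes were tested for 5mC, of which 12 were lower in HepG2 and 1 higher, where 66.2% and 1.14% of all genes were, and the median log2 odds was -4.68 against -2.36 over all genes. NKX2-1, which acts with PAX8 in the thyroid, was the higher one, at 62.7% ± 2.37 in HepG2 against 10.3% ± 2.34 in H1ES (SD, n = 2 each; edgeR, adjusted p = 1.47e-08). MITF, the pigment-cell target of PAX3, fell from 98.1% ± 0.805 to 23.1% ± 0.383 (adjusted p = 1.93e-124), and EBF1, a B-cell factor, from 90.5% ± 1.41 to 26.0% ± 3.94. RET and DACH1 were the other named genes that fell. For 5hmC 3 of the 16 were lower in HepG2 and 0 higher (edgeR, adjusted p under the threshold of 0.05), against 11.4% and 0.0% of all genes.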

How the data were processed

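CCGG tags were measured with DARESOME in 14 human libraries, 2 of 1000 cells and 5 of single cells for each of H1ES and HepG2. The submitters' processing notes name hg38, Bowtie2 2.3.4.1, cutadapt 1.5 and UMI-tools 0.5.4. The counting rule is not given in the sources used here. The authors deposited, for each site, 3 values in the unit fraction (unmethylated, 5mC and 5hmC) and a count of its tags of all kinds. The tables have no header, the column order was given with the choice of genes, and fraction times count was whole within 0.00142, so tags of each kind were recovered. Of 69333 CCGG motifs in RefSeq promoter windows 100% were found at table sites.

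Tags were pooled per gene, class of site and library. A mark was tested against the other tags by edgeR 4.0.16 (quasi-likelihood, 1 term per library, R 4.3.3) over all autosomal protein-coding genes or clusters, with Benjamini-Hochberg adjustment at 0.05. The minimum per library was 10 tags at island-like sites and clusters and 20 at other sites. The effect is the log2 odds, HepG2 minus H1ES. The 15100 genes with a strand in the RefSeq promoter table entered; PAX1 entered only in fits added after the data were seen. The scripts were tested on simulated data. Alternatives were other minimums, DESeq2 1.42.0 (size factors of 1), limma 3.58.1 (logit shares, pseudocount 0.5), odds relative to each library, a replicate block, each library left out, 10 sites for an island, and other windows. With a library left out, the lone library of its line was assumed to vary like the other line.

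All 9 PAX genes were named, with up to 4 network genes per direction with the smallest p. Clusters in the text were taken from those with at least 10 tags, not all of which are described. The members and lists were chosen with earlier results of these data known. The split at 2 kb and the single sites were chosen after the values were seen. Mean chi-square of replicate shares was 1.01 to 1.05 per gene, so p-values rest largely on counting error. In blocks of 200 sites the total tags of replicates differed more than counting allows (mean chi-square 1.08 in HepG2 and 5.08 in H1ES), so both were kept. Per gene the mean chi-square of total tags was 0.991 to 1.01 in HepG2 and 1.23 to 2.28 in H1ES. The HepG2 libraries thus differed little beyond counting error. Intervals and limits of a share of 0 (3 tags over the total) cover counting error only. Tables were made with Python 3.11.15, pandas 2.3.3 and SciPy 1.17.1, and figures with matplotlib 3.10.9.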

Additional observations from a re-analysis of the deposited data

Results flagged for a closer look

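Among 36 sets of 5 single cells (9 genes, 2 lines, unmethylated share at island-like and other sites), 2 held a cell far from the others, about what chance gives at 1 in 20 sets. At PAX1 island-like sites H1ES cell 1 was at 100% unmethylated, from 4 tags, with the next cell at 71.4% and the lowest at 60.0%. At PAX3 island-like sites the same cell was at 66.7%, from 3 tags, while the other cells were at 100%.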

How the results depend on the processing

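Over all genes, the island test called 2460 genes, against 1496 by DESeq2, 256 with 10 sites for an island, 3712 with 5 kb on both sides and 921 to 1753 without one library. The 5mC test called 8282 (7247 to 7859 without one library). The 5hmC test called 1401, against 1 relative to each library's odds and 462 to 1047 without one library. The cluster test called 5689, against 9979 with 5 tags, 1309 with 20 tags, 287 with 10 sites for an island and 2361 to 5679 without one library. The cause of these moves was not tested.

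PAX genes with a higher island share numbered 1, but 0 by DESeq2, limma, relative odds and 10 sites, 2 with the window from the start, and 0 to 1 without one library. Those with a lower island share numbered 4, but 3 by DESeq2 and by limma, 1 with 10 sites, 2 with the window from the start and 1 to 3 without one library. For 5mC the 1 higher gene became 0 by DESeq2 and with the window from the start and 2 relative to each library and with 10 sites, and the 6 lower genes became 3 relative to each library. The 4 lower in 5hmC became 0 relative to each library.

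Turned directions were in log2 odds. Island shares relative to each library gave -0.12 in PAX2 and -0.45 in PAX5, and with 10 sites -0.43, -0.67 and, in PAX7, -1.17. 5mC relative to each library gave 0.35 in PAX3, 0.089 in PAX5, 0.11 in PAX8 and 2.93 in PAX9, and PAX9 was at 0.69 with 10 sites and at -0.39 to 0.10 without one library. 5hmC in PAX4 was at -0.26 to 0.088 without one library and 0.38 with 5 kb on both sides, and in PAX6 at -2.96 to 0.071 without one library. Among clusters, PAX1 at 21708331 was at 0.010 by limma and -0.18 to 0.13 without one library, PAX2 at 8.69 kb at -0.55 to 0.49 without one library, and PAX5 at 6.47 kb at -0.40 relative to each library. For single genes and clusters, leaving out a library kept direction and side of the threshold in 128 of 156 cases, and the other alternatives in 247 of 287.

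With the replicate number as a block, the counts were 2370 (islands), 8106 (5mC), 699 (5hmC) and 5235 (clusters). The deviations of same-numbered libraries correlated at 0.0291 or less. These deviations consist largely of counting error, so a weak effect shared by same-numbered libraries could go unseen. Beside the 2 clusters named in the results, the block changed no other call of a PAX gene or cluster. At other sites PAX4, PAX1 and PAX6 held the fewest tags, and 1 to 2 tags of 5hmC in a gene cannot show a difference.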
